A study of Mus musculus with 55 samples.

Results

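Long-term and short-term hematopoietic stem cells (LT-HSCs and ST-HSCs) of WT mice were compared across all expressed genes. The comparison takes the 3 WT LT-HSC and the 3 WT ST-HSC libraries of a bulk RNA-seq series of 55 libraries from sorted mouse bone marrow, and 18385 of the 55421 genes in the count table were expressed highly enough to be tested. The study set WT mice beside mice with floxed Tet2 alleles deleted through Mx1-Cre after poly(I:C), an interferon inducer. By the study's sorting scheme both populations are lineage-negative, cKit+, Sca1+ and CD48-, and CD150 separates them, present on LT-HSCs and absent from ST-HSCs. Each library was made from 200 sorted cells by the labels, with a full-length SMART-seq protocol, and the study's methods give a different number of cells. The WT libraries carry the replicate numbers 2, 3 and 5. By the study's methods the deletion was induced in juvenile mice, and analysis followed several months later. The labels give neither age nor sex, and the sources used here do not say whether the WT mice received poly(I:C). They do not say whether the LT-HSC and the ST-HSC library of one number came from one mouse. The p-values therefore measure the spread between these libraries.

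LT-HSCs sustain blood formation for life and after serial transplantation, and most of them are quiescent. ST-HSCs lie directly downstream, repopulate a host for a limited time and divide more often. Between the stages, transcripts of the mature blood lineages start to appear at low levels in cells that are still multipotent, a state called lineage priming. LT-HSCs share transcripts and surface receptors with megakaryocytes, the platelet-forming cells, while lymphoid and neutrophil transcripts mark the progenitors on the way to those lineages.

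The 6 WT libraries held between 50458473 and 78705617 counts, with medians of 70687676 in LT-HSCs and 77037781 in ST-HSCs, and between 17753 and 18248 detected genes each. Mitochondrially encoded transcripts made up 8.02% to 9.50% of an LT-HSC library and 8.73% to 9.02% of an ST-HSC library. Across 8489 genes the correlation of log2 CPM (a gene's counts relative to the TMM-scaled library size, the unit of level throughout) was 0.876 to 0.901 within LT-HSCs, 0.847 to 0.857 within ST-HSCs and 0.814 to 0.848 between them, so single libraries of one population were only slightly more alike than libraries of different populations. The spread between libraries was wide, with a median standard error (SE) of the log2 fold change of 0.71 over all genes. The fit also held 4 LT-HSC and 4 ST-HSC libraries labelled Tet2-/-, which helped to estimate this spread but did not enter the contrast. Tet2 RNA did not set them apart from WT, as the libraries overlapped in both populations. It stood at 25.9 ± 14 CPM (SD, n = 4) in LT-HSCs labelled Tet2-/- against 14.1 ± 2.06 in WT (n = 3), and at 20.6 ± 8.02 against 24.3 ± 12.9 in ST-HSCs. The study shows a genotyping result for the Cre-mediated deletion. Counts per gene cannot show whether the floxed part alone was lost, so these values do not test the deletion. The libraries are called by their label throughout.

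The transcripts of the 4 proteins used for sorting were looked at first. Slamf1, which encodes CD150, held 50.4, 65.6 and 46.4 CPM in LT-HSC libraries 2, 3 and 5 against 0, 1.70 and 0 in the ST-HSC libraries. Every LT-HSC library lay far above every ST-HSC library, as the CD150 gate fixes, and the difference is not a finding. Its log2 fold change of 6.49 (SE 1.55) had an adjusted p of 0.206 by edgeR's quasi-likelihood test, so even this gene was not called in the WT comparison. Cd48 held 2.38, 6.73 and 14.6 CPM in LT-HSCs against 35.8, 51.8 and 57.5 in ST-HSCs (log2 fold change -2.61, SE 1.28, adjusted p = 0.677). CD48 protein was gated out of both populations, yet each ST-HSC library held more Cd48 RNA than any LT-HSC library. Kit, the stem cell factor receptor, held 234, 231 and 164 CPM against 201, 263 and 249, and Ly6a, which encodes Sca1, 26.3, 135 and 120 against 39.8, 52.3 and 66.8. For these 2 genes the populations overlapped.

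Calls required at least a 2-fold change and an adjusted p under 0.05 over all genes tested. By this rule 19 genes were higher in LT-HSCs (0.103% of the genes tested) and 40 were lower (0.218%). Fitted values of the called genes ranged from 1.29 to 8.91 on the log2 scale among those higher and from -9.07 to -1.05 among those lower. The upper end belonged to Clec7a, which had no count in ST-HSCs, so that its fold is only known to be at least 319. For all 59 genes the 3 LT-HSC libraries lay apart from the 3 ST-HSC libraries. Over all genes, every LT-HSC library lay above every ST-HSC library at 7.64% and below at 7.19%. At an unadjusted p under 0.05, 637 genes were higher (3.46%) and 735 lower (4.00%). An exact permutation test of 3 against 3 libraries cannot go below p = 0.1, and every called gene reached that value. The number of calls depended on single libraries: without LT-HSC library 2, 3 or 5 there were 7, 7 and 10 genes called higher and 12, 19 and 15 called lower, and without ST-HSC library 2, 3 or 5 there were 14, 9 and 11 higher and 24, 24 and 27 lower. In 16 of the 59 genes the call held whichever of the 14 libraries was left out. They were Tgfbr3, Mllt3, Pf4, Clec7a and Rbm11 among the higher genes, and Mpo, Ccl3, Ccl4, Cd34, H2afy, Emb, H2-Ob, Wfdc17, Plac8, Cd69 and Serpinb1a among the lower ones. With all 22 WT libraries in the fit, Ccl3, Emb, H2-Ob and Cd69 kept the call and the others of these 16 lost it. With all 46 libraries H2afy, Plac8, Ccl3, Emb, H2-Ob and Cd69 kept it, and with the 6 WT libraries alone Rbm11, Clec7a and Ccl3 lost it. A block for the replicate number ended the call of Pf4, Clec7a and Rbm11, and with the 6 WT libraries alone this block left no gene called.

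**Figure D1:**
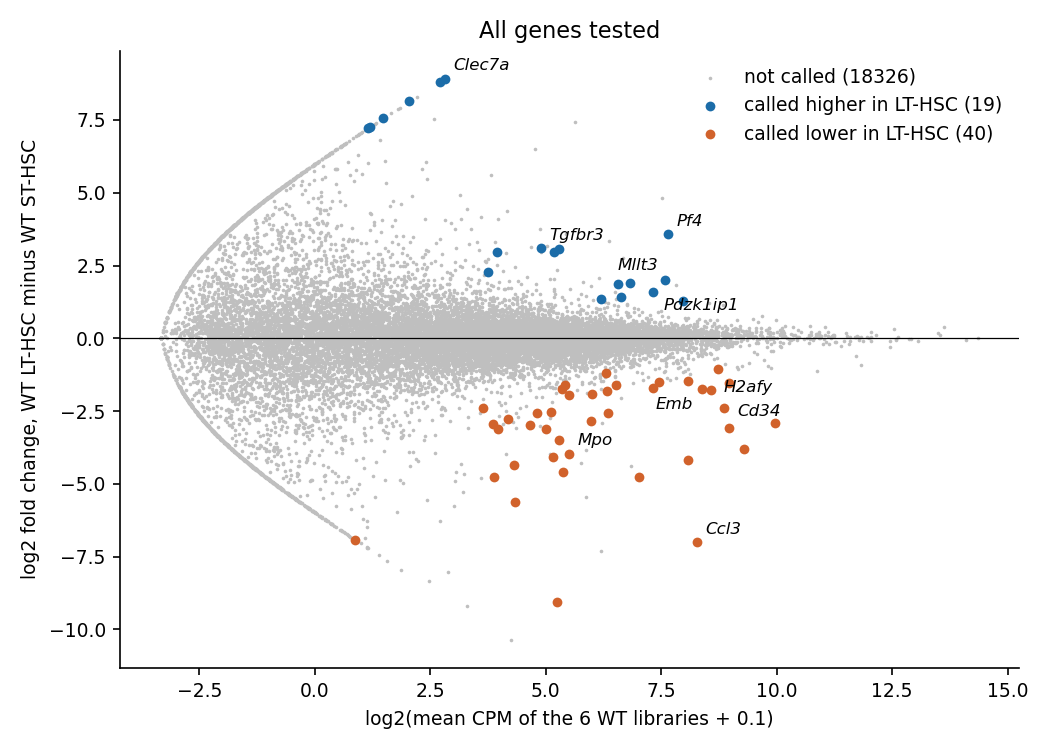
Log2 fold change of WT LT-HSCs over WT ST-HSCs (vertical axis) against the log2 of the mean CPM of the 6 libraries plus 0.1 (horizontal axis) for the 18385 genes tested. Blue points are the 19 genes called higher and orange points the 40 called lower, and the first 5 genes in each direction of those named by rule carry their symbols.

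Among the genes higher in LT-HSCs, the smallest p belonged to Tgfbr3 (ENSMUSG00000029287, chromosome 5: 107106570-107289629, minus strand, mm10), which encodes betaglycan, a co-receptor that presents TGF-beta family ligands. It held 58.1, 44.4 and 56.0 CPM in the LT-HSC libraries and 5.38, 6.06 and 7.08 in the ST-HSC libraries. It rose 8.53-fold (log2 fold change 3.09, SE 0.30, adjusted p = 0.000674), with little spread within either population. Mllt3 (ENSMUSG00000028496, chromosome 4: 87769925-88033364, minus strand) encodes AF9, a chromatin reader of the super elongation complex that helps to maintain HSCs. The LT-HSC libraries held 160, 217 and 157 CPM of it and the ST-HSC libraries 51.8, 49.9 and 40.8, a 3.75-fold difference (1.91, SE 0.21, adjusted p = 0.00124). Pdzk1ip1 (ENSMUSG00000028716, chromosome 4: 115088708-115093899, plus strand), which encodes the small membrane protein MAP17, went from 78.6, 62.4 and 95.7 CPM in ST-HSCs to 199, 295 and 225 in LT-HSCs (1.60, SE 0.24, adjusted p = 0.00967).

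Pf4 (ENSMUSG00000029373, chromosome 5: 90772435-90773383, plus strand) encodes platelet factor 4, a chemokine stored in platelet granules. It was among the more abundant of the called transcripts, at 388, 354 and 366 CPM in LT-HSCs against 41.3, 30.7 and 20.8 in ST-HSCs. The rise was 11.9-fold (log2 fold change 3.58, SE 0.47, adjusted p = 0.00452). Mmrn1, which encodes the platelet and endothelial protein multimerin 1, held 322, 396 and 198 CPM against 99.4, 59 and 69.6 (2.01, SE 0.37, adjusted p = 0.0391). Clec7a (ENSMUSG00000079293, chromosome 6: 129461591-129472779, minus strand) encodes Dectin-1, the receptor for fungal beta-glucans, and its gene model is annotated as a polymorphic pseudogene. It held 10.2, 26 and 5.57 CPM in LT-HSCs and no count in any ST-HSC library, so that it was at least 319-fold higher against a floor of 3 counts per library (adjusted p = 0.00783).

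Other genes named by the same rule, which took the 15 of smallest p with a mean of 10 CPM or more in LT-HSCs, had varied roles. Tgm2, the calcium-dependent cross-linking enzyme transglutaminase 2, stood at 63.9 ± 15.7 CPM in LT-HSCs and 8.21 ± 0.688 in ST-HSCs (log2 fold change 2.96, SE 0.51, adjusted p = 0.0272). Fhl1, a LIM-domain protein, rose by 3.07 on the log2 scale, Apoe, the lipid carrier apolipoprotein E, by 2.98, and Selenom, a selenoprotein of the endoplasmic reticulum, by 2.27. Uba7, the activating enzyme of the interferon-induced modifier ISG15, rose by 1.42 with 123, 161 and 150 CPM in LT-HSCs against 60.1, 49.9 and 51.8 in ST-HSCs. Cenpt, a centromere protein, rose by 1.34 and Srp14, a subunit of the signal recognition particle, by 1.29. Rbm11, Eya4, Gkn3 and 2310030G06Rik were called outside the rule and named after their values were seen. In each the ST-HSC libraries were all at 0 and the LT-HSC means lay between 4.25 and 8.09 CPM.

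Of the genes lower in LT-HSCs, several encode proteins of myeloid cells or chemokines. Mpo (ENSMUSG00000009350, chromosome 11: 87793581-87804413, plus strand) encodes myeloperoxidase of neutrophil granules. The 3 LT-HSC libraries held 6.51, 6.43 and 3.33 CPM and the 3 ST-HSC libraries 92.3, 95.3 and 66.6, a 15.6-fold fall (log2 fold change -3.96, SE 0.39, adjusted p = 0.000674). Ccl3 (ENSMUSG00000000982, chromosome 11: 83647844-83649355, minus strand), the chemokine MIP-1 alpha, held 8.53, 5.06 and 0.743 CPM against 511, 713 and 624. At 129-fold (-7.01, SE 0.70, adjusted p = 0.000674) its difference was far larger than the spread within ST-HSCs. Its neighbour Ccl4, the chemokine MIP-1 beta, held 59.7, 113 and 79.1 CPM against 731, 1184 and 1578 (-3.79, SE 0.44, adjusted p = 0.00157). Wfdc17, a small secreted protein of myeloid cells, held 10.8, 12.6 and 4.47 CPM against 213, 282 and 259 (-4.75, SE 0.54, adjusted p = 0.00129). Plac8, abundant in immature myeloid cells, held 124, 66.0 and 125 CPM against 948, 834 and 892 (-3.08, SE 0.38, adjusted p = 0.00284).

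Cd34 (ENSMUSG00000016494, chromosome 1: 194938819-194961279, plus strand) encodes the surface sialomucin that mouse LT-HSCs largely lack, and it was not used in these gates. It held 160, 121 and 170 CPM in LT-HSCs against 778, 841 and 730 in ST-HSCs and was 5.20-fold lower (log2 fold change -2.38, SE 0.24, adjusted p = 0.000674). Its RNA was low rather than absent in each LT-HSC library. H2afy (ENSMUSG00000015937, chromosome 13: 56073619-56136361, minus strand), which encodes the histone variant macroH2A1, held 167, 168 and 181 CPM against 572, 587 and 623 (-1.79, SE 0.18, adjusted p = 0.000674). Emb (ENSMUSG00000021728, chromosome 13: 117208536-117274415, plus strand), which encodes the adhesion glycoprotein embigin, held 150, 156 and 156 CPM against 429, 564 and 538 (-1.73, SE 0.18, adjusted p = 0.000813). In both genes the libraries of a population lay close together, and the fall was moderate.

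Other genes of this rule had varied roles in lymphoid and myeloid cells. Dntt, the terminal transferase that adds bases at antigen receptor joints, held 0.305, 0.0522 and 0 CPM in LT-HSCs against 22.2, 77.1 and 126 in ST-HSCs (log2 fold change -9.07, SE 1.29, adjusted p = 0.00783). Its level varied widely between the ST-HSC libraries, none of which came near the LT-HSC level. H2-Ob, a chain of the class II antigen-loading regulator, fell by 2.85 on the log2 scale, and Tespa1, an adaptor of T cell receptor signalling, fell by 4.61. Cd69, an early activation antigen that holds cells in tissue, went from 1350, 1536 and 2413 CPM in ST-HSCs to 157, 244 and 304 in LT-HSCs (-2.91, adjusted p = 0.00441). Serpinb1a, an inhibitor of neutrophil proteases, fell by 1.47 and the orphan receptor Gpr171 by 1.53. Another 20 genes were called lower and named neither by this rule nor through a list, and those given here were chosen after their values were seen. They included the tetraspanin Cd53 (28.1 ± 11.1 against 513 ± 90.5 CPM, -4.19), the transcription factors Sox4 (74.3 ± 8.02 against 245 ± 36.9 CPM, -1.72) and Ikzf2 (-1.61), the oxidase subunit Ncf4 (-1.90) and the actin-binding thymosin Tmsb10 (-1.05).

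**Figure D2:**
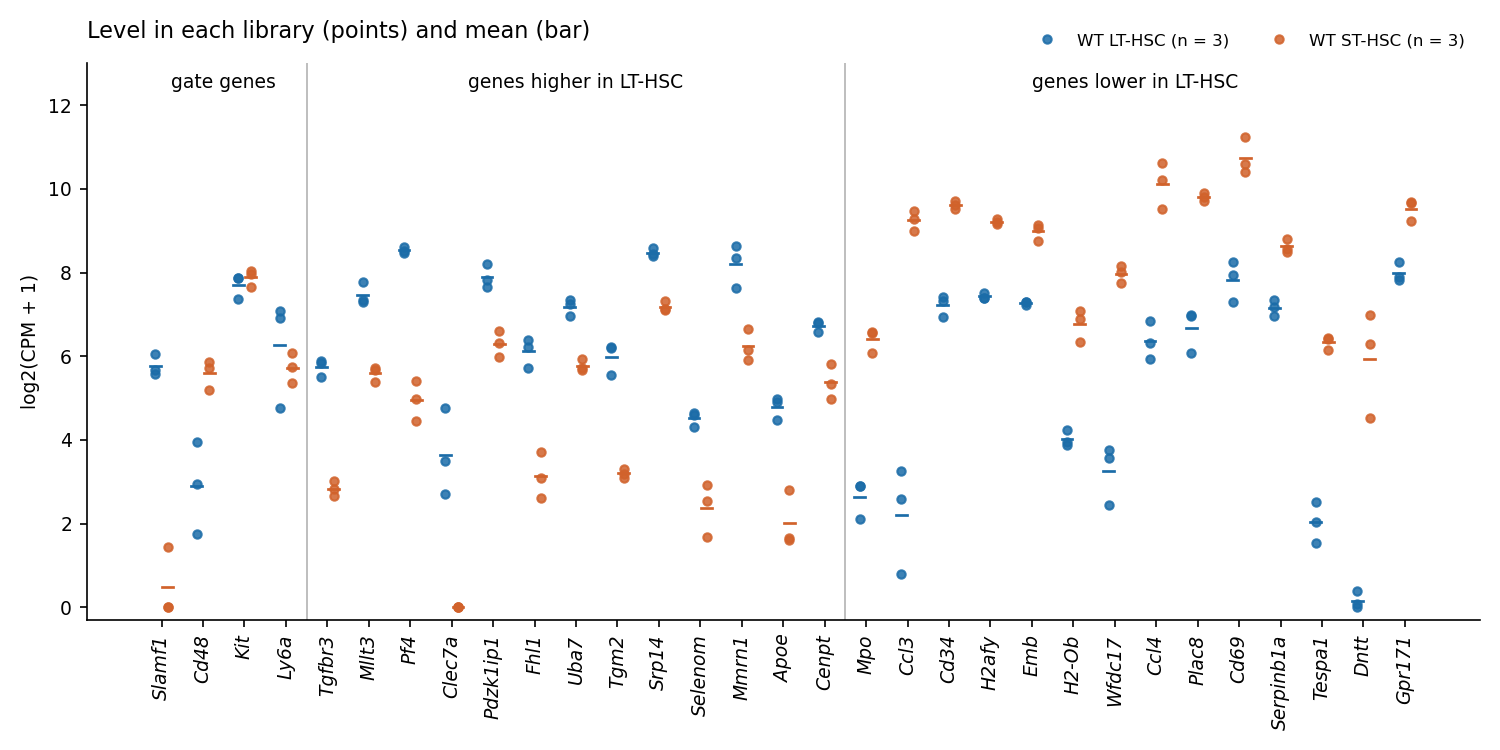
Level of the 4 gate genes and of genes named by rule in each direction in the 3 WT LT-HSC (blue) and 3 WT ST-HSC libraries (orange), as log2(CPM + 1) on the vertical axis, with 1 point per library and a bar at the mean. In each of the latter genes the points of the populations lie apart, while those of Kit and Ly6a overlap.

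Promoter sequences are shown for 5 of the called genes, Pf4 (higher in LT-HSCs) and 4 that were lower. They do not stand for the called genes as a whole, as each of the 5 held a motif match. Of the 59 called genes 41 had an entry in the RefSeq promoter table (GRCm38.p6, 250 bases before to 50 after the annotated start), and Tgfbr3 was not among them. Each line is written 5′ to 3′ on the strand of the gene, with motif matches on either strand in capitals.
Pf4: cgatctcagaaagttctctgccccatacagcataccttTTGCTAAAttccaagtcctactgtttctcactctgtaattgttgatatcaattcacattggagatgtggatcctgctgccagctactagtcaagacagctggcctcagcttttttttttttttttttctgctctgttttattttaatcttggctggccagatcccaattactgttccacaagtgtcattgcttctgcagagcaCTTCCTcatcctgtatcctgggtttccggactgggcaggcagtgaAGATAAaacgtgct
Mpo: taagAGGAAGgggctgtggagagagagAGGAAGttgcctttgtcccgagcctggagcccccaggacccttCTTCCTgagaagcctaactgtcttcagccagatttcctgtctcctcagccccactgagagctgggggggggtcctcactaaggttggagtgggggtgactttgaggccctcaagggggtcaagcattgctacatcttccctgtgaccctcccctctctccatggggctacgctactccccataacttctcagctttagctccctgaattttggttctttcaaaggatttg
Ccl3: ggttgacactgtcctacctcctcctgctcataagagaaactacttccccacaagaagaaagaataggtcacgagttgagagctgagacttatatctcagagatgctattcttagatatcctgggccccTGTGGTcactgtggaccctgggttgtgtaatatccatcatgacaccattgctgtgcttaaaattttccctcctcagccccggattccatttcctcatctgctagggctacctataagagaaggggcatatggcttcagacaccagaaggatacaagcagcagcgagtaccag
Cd34: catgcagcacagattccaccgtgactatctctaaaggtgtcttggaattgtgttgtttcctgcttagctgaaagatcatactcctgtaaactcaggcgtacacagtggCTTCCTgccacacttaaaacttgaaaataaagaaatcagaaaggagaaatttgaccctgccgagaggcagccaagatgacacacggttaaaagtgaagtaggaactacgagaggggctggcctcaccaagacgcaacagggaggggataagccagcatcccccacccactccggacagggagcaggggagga
Plac8: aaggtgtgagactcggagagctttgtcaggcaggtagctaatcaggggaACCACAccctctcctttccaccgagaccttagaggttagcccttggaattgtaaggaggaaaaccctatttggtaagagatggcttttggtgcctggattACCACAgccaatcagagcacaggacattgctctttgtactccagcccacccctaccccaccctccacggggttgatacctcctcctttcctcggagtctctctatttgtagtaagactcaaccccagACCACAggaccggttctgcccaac
The windows lie at chr5:90772185-90772484 for Pf4 (plus strand), chr11:87793534-87793833 for Mpo (plus), chr11:83649329-83649628 for Ccl3 (minus), chr1:194938571-194938870 for Cd34 (plus) and chr5:100572156-100572455 for Plac8 (minus). Motifs were searched by letters: AGATAA for factors of the GATA family, AGGAAG for the ETS family, TGTGGT for the RUNX family, TTGCNNAA for the C/EBP family and TGANTCA for AP-1. In the 5 windows no match overlapped another. The windows of Mllt3, Clec7a, Pdzk1ip1, H2afy, Emb and H2-Ob, which are not shown, held no match to any of these letters. Pf4 held the GATA letters 36 bases after the start, the ETS letters at -9 and the C/EBP letters at -212. Mpo held the ETS letters at -246, -223 and -180, Cd34 held them at -142, Ccl3 held the RUNX letters at -122, and Plac8 held those of RUNX at -201, -101 and 26. The GATA letters were present in 4 of 15 promoters of the higher genes (26.7%), in 1 of 26 of the lower genes (3.85%) and in 6.79% of the 11377 promoters of genes tested. The RUNX letters were in 0 of 15, 9 of 26 (34.6%) and 12.9%, and the ETS letters in 4 of 15, 11 of 26 (42.3%) and 33.5%. The C/EBP letters were in 2 of 15, 2 of 26 and 8.48%, and the AP-1 letters in 3 of 15, 3 of 26 (11.5%) and 5.09%. Positions are counted from the RefSeq start, which for Mpo, and by less for Plac8, lies downstream of the start of the GENCODE gene model, so that part of the window before it is inside that model. These are matches of letters in a short window and no measure of binding.

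Lists of genes with a shared role were then described by their members and by their median log2 fold change (LT-HSC minus ST-HSC), beside all genes tested, of which 50.8% were higher in LT-HSCs with a median of 0.01. Genes known for LT-HSC identity were mostly higher: 43 of the 60 tested, with a median of 0.74, 5 called higher and none lower, against 0.103% and 0.218% of all genes. The called members included Mllt3, Pdzk1ip1, Tgm2 and Mmrn1. Every LT-HSC library lay above every ST-HSC library at 33 members and below at 4, against 7.64% and 7.19% of all genes. Of members chosen after their values were seen, Sult1a1, a sulfotransferase, held 259, 459 and 341 CPM against 23.1, 8.87 and 5.22 (log2 fold change 4.83, SE 1.0, adjusted p = 0.0740), and Nupr1, a stress-induced nuclear protein, held 62.8, 86.2 and 89.8 against 13.4, 3.31 and 3.25 (3.58, adjusted p = 0.0740). Both lay apart in all libraries and missed the threshold. Some familiar stem cell genes, also chosen afterwards, differed less: Procr, which encodes EPCR, stood at 37.8 ± 11.5 against 33.0 ± 3.72 CPM, Fgd5 at 18.4 ± 4.65 against 14.2 ± 4.65 and Mecom, the factor EVI1, at 88.8 ± 25.8 against 55.1 ± 7.01. Hlf, a transcription factor of HSCs, went the other way, with 85.4, 117 and 22.1 CPM in LT-HSCs against 219, 212 and 170 in ST-HSCs (-1.42, SE 0.46, adjusted p = 0.459). In libraries labelled Tet2-/- it stood at 185 ± 43.9 against 133 ± 40.6 CPM, and the difference between the sets did not pass the test (unadjusted p = 0.00748, adjusted p = 0.999934 by edgeR).

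Megakaryocyte and platelet genes had the highest median of the lists, 1.33, with 24 of the 29 tested higher, 14 of them at an unadjusted p under 0.05 (3.46% of all genes), and Pf4 and Mmrn1 called (0.103% of all genes). Among genes chosen after their values were seen, Vwf, the platelet adhesion protein von Willebrand factor, held 53.9, 10.2 and 24.0 CPM in LT-HSCs against 3.60, 0.967 and 0.461 in ST-HSCs (log2 fold change 4.11, SE 1.29, adjusted p = 0.418). Cavin2, a caveolar protein of platelets that was not in the list, held 92.1, 125 and 78.7 CPM against 0, 0.0496 and 1.55 (7.43, SE 2.16, adjusted p = 0.335). The tetraspanin Cd9 held 490, 528 and 528 CPM against 171, 225 and 268 (1.22, adjusted p = 0.211), and Itga2b, the platelet integrin CD41, stood at 14.6 ± 3.56 against 4.52 ± 2.41 (1.69, adjusted p = 0.459). All 4 lay apart without reaching the call. Of the list, 17 members lay apart with LT-HSCs above and 1 with LT-HSCs below, against 7.64% and 7.19% of all genes. Thbs1 and Plek, which platelets also carry, went the other way, at 16.6 ± 4.95 against 54.3 ± 15 and 112 ± 48.8 against 302 ± 173 CPM (-1.71 and -1.43). Both were picked once the values were known, and neither was called.

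Early lymphoid priming genes were lower almost throughout, 24 of the 26 tested, with a median of -1.22 and 4 called (0.218% of all genes), Dntt, Satb1 and Emb among them. The median was smaller in size with a block for the replicate number, as given below under the dependence on processing. Satb1, a chromatin organizer of lymphoid cells, stood at 0.769 ± 0.570 against 39.5 ± 17.4 CPM (-5.62, adjusted p = 0.0391). In libraries labelled Tet2-/- the median was -0.51, with 8 of the 26 higher. Flt3, a cytokine receptor of lymphoid-primed progenitors that was not part of these gates and was chosen after its values were seen, held 6.34, 8.68 and 0.880 CPM in LT-HSCs against 107, 108 and 96.8 in ST-HSCs (log2 fold change -4.29, SE 0.90, adjusted p = 0.0763). Cd27, a costimulatory receptor, stood at 121 ± 24.3 against 261 ± 60.6 CPM (-1.11, adjusted p = 0.168). Myeloid priming genes had the lowest median, -1.76, with 21 of the 24 tested lower. Mpo, Plac8, Tyrobp, Clec12a and Ctss were called lower, against 0.218% of all genes. Tyrobp, the signalling adaptor DAP12, held 7.90, 3.39 and 8.55 CPM against 48.8, 78.1 and 46.5 (-3.12, adjusted p = 0.0147). Clec12a, an inhibitory lectin receptor of myeloid cells, held 4.11, 3.40 and 4.21 against 52.1, 76.7 and 72.7 (-4.09, adjusted p = 0.0156), and Ctss, the lysosomal protease cathepsin S, fell by 1.94 (adjusted p = 0.0454). The myeloid growth factor receptor Csf3r stood at 12.7 ± 6.27 against 57.6 ± 2.00 CPM (-2.18, adjusted p = 0.0825) and the myeloid transcription factor Cebpa at 0.348 ± 0.602 against 7.81 ± 2.44 (-4.37, adjusted p = 0.591), both chosen after their values were seen. Spi1, which encodes PU.1, and Lyz2, lysozyme, were close to level, with log2 fold changes of -0.11 and 0.19, and were likewise chosen afterwards. In bulk RNA, fewer cells that express a gene and less RNA of it per cell cannot be told apart.

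Markers of mature cells were summed to see whether other cell types moved with these lists. Neutrophil markers summed to 1.83 to 9.35 CPM in LT-HSCs and 0.979 to 10.8 in ST-HSCs, with Ly6g and Mmp9 at 0 in all 6 libraries. Sums of B cell markers were 51.2 to 84.5 against 143 to 153 CPM with Blk at 0, and those of T and NK cell markers 77.5 to 145 against 220 to 333. Macrophage and monocyte markers summed to 16.3 to 35.4 against 38.9 to 62.6 CPM. In these 4 lists 6 of 7 B cell, 8 of 8 T and NK cell, 5 of 10 macrophage and 1 of 4 neutrophil markers were lower, and none was called. They share Ighm, Cd79a, Cd79b, Lck, Nkg7, Csf1r and others with the priming lists, and their part in the differences was not tested. Ighm accounted for most of the B cell difference, at 0.228, 1.60 and 10.4 CPM in LT-HSCs against 72.4, 56.1 and 63.4 in ST-HSCs.

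Erythroid genes had a median of -0.70 (12 of 19 lower, none called). The sign of this median changed with limma voom, with a block for the replicate number and without ST-HSC library 2, where it was 0.55. In that library Car1, carbonic anhydrase 1, held 337 CPM against 4.23 and 0.896 in the other two and 0.908 to 4.04 in LT-HSCs. The erythroblast marker sum was 168 to 583 CPM in ST-HSCs against 96.9 to 166 in LT-HSCs (7 of 9 markers lower), with Slc4a1 at 0 throughout. Mast cell and basophil markers summed to 9.17 to 15.9 against 10.2 to 90.9 CPM (4 of 5 lower; Prss34, Ms4a2, Tpsb2, Cma1 and Mcpt4 at 0), and the upper end came from ST-HSC library 3, with 78.5 CPM of Cpa3, mast cell carboxypeptidase, against 19.6 and 6.78 in the other two. Endothelial and stromal markers summed to 65.2 to 71.2 against 79.9 to 113 CPM (4 of 5 lower; Cdh5, Flt1, Plvap and Col1a1 at 0). A list of lineage antigen genes, which also holds Itgam (Mac1, not named in the sorting cocktail), summed to 235 to 301 against 185 to 484 CPM, with Cd4 and Ly6g at 0. Most of that sum was Ptprc, the common leukocyte antigen CD45. No marker of these lists was called.

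**Figure D3:**
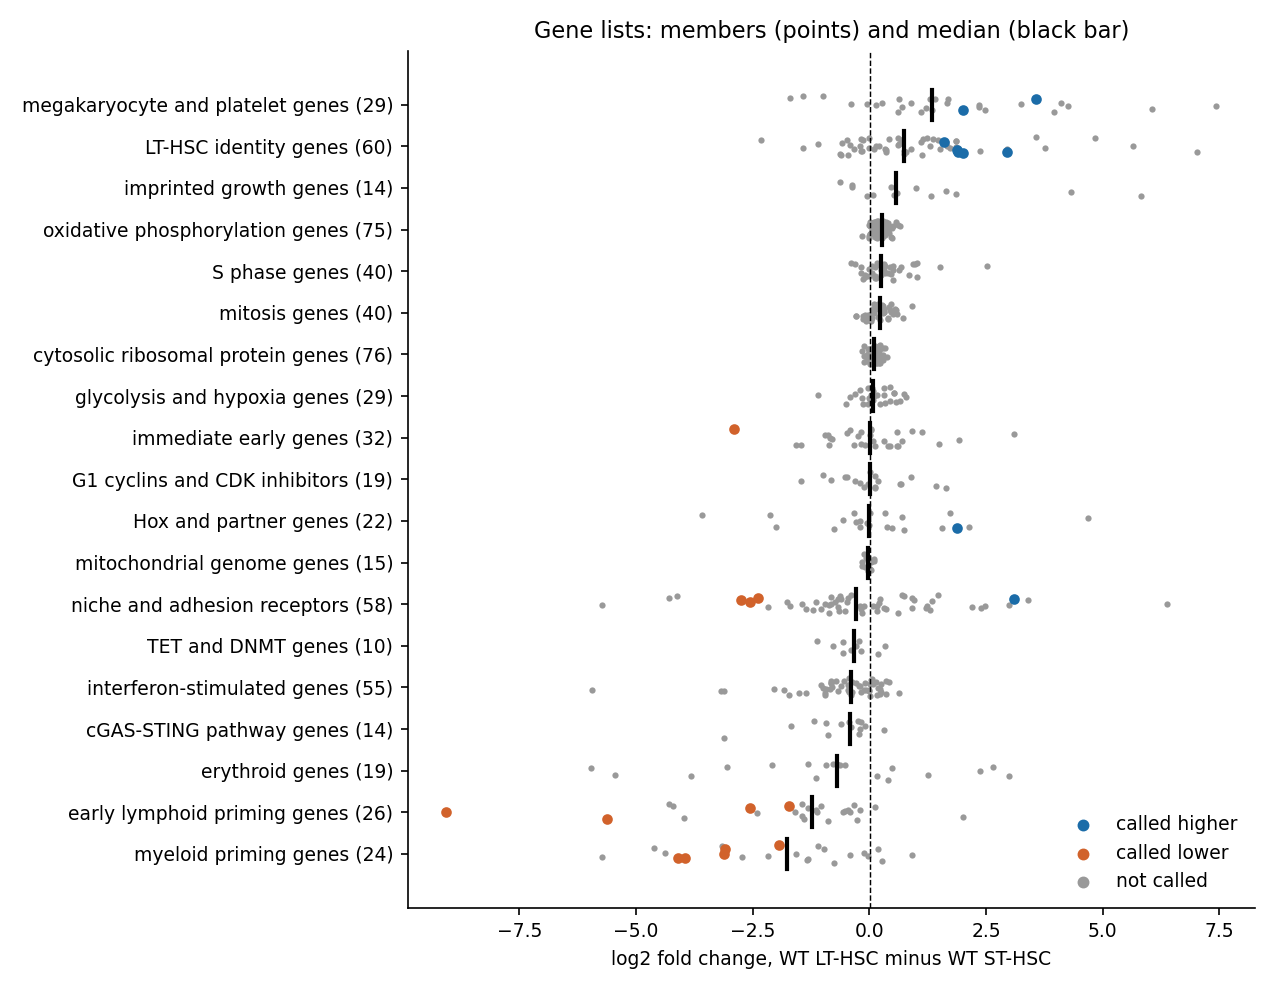
Log2 fold change of WT LT-HSCs over WT ST-HSCs (horizontal axis) for the tested members of each gene list (number in brackets), with called members in blue (higher) or orange (lower), the list median as a black bar and the median of all genes as a dashed line. The megakaryocyte list has the highest median, 1.33, and the myeloid priming list the lowest, -1.76.

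Receptors through which HSCs sense their niche were divided, with 25 of the 58 tested higher and 33 lower (median -0.29). Tgfbr3 was called higher, while 3 were called lower, among them Cd34 and Il1r1, the interleukin-1 receptor (0.103% and 0.218% of all genes). Il1r1 held 3.79, 6.06 and 4.10 CPM in LT-HSCs against 34.0, 40.8 and 20.2 in ST-HSCs (log2 fold change -2.76, SE 0.51, adjusted p = 0.0391). The signalling TGF-beta receptors had the opposite order to their co-receptor Tgfbr3 (both chosen after their values were seen): Tgfbr2 stood at means of 22.3 against 57.1 CPM (-1.35, adjusted p = 0.459) and Tgfbr1 at 22.6 against 41.0 (-0.86, adjusted p = 0.840), and neither was called. Of Hox and partner genes, 11 of 22 were higher and 10 lower (median 0.00), with 1 called higher (0.103% of all genes). Hoxa9, a factor of HSC self-renewal, was not called, at 41.1, 33.7 and 64.3 CPM against 49.1, 99.3 and 88.3. Imprinted growth genes had a median of 0.57 with 10 of 14 higher and none called, and the median was 0.05 without LT-HSC library 3. Ndn, the growth suppressor necdin, held 49.8, 21.5 and 58.9 CPM against 11.5, 12.8 and 11.7 (1.85, adjusted p = 0.377), and Grb10, an adaptor that restrains growth factor signalling, 60.3, 67.6 and 51.3 against 38.4, 20.6 and 12.7 (1.32, adjusted p = 0.430).

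Cell cycle genes showed no call in either direction. Of 40 S phase genes 32 were higher in LT-HSCs (median 0.26), and of 40 mitosis genes likewise 32 (median 0.23). The median of mitosis genes was -0.13 without LT-HSC library 5. The summed level of the mitosis genes overlapped widely, at 1858 to 5082 CPM in LT-HSCs against 2379 to 4233 in ST-HSCs, and so did that of the S phase genes, at 3124 to 4427 against 2931 to 3824. LT-HSC library 3 held 66.7 CPM of Birc5, the mitotic regulator survivin, where libraries 2 and 5 held 179 and 240. Among G1 cyclins and CDK inhibitors 10 of 19 were higher (median 0.01, which changed sign when single libraries were left out). Cdk6, the kinase that drives exit from quiescence, held 332, 432 and 363 CPM in LT-HSCs against 701, 943 and 607 in ST-HSCs (-1.0, SE 0.29, adjusted p = 0.347). Ccnd2, its partner cyclin D2, had the opposite order, with 379, 408 and 392 CPM against 258, 238 and 243 (0.68, SE 0.17, adjusted p = 0.206). Both lay apart between the populations, and neither was called.

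Differences in metabolic genes were small. Nuclear genes of oxidative phosphorylation were higher in 71 of 75 cases, with a median of 0.26 and none called, and their summed level was 16454 to 19592 CPM in LT-HSCs against 13939 to 15809 in ST-HSCs. Genes of the mitochondrial genome had a median of -0.03 (6 of 15 higher), which changed sign without LT-HSC library 2. Cytosolic ribosomal protein genes were higher in 65 of 76 cases, with a median of 0.10, and glycolysis and hypoxia genes were higher in 19 of 29 (median 0.09). Ldha, which encodes lactate dehydrogenase A, stood apart within that list at 1061, 1068 and 975 CPM against 546, 706 and 552 (0.78, SE 0.27, adjusted p = 0.525). Pdk1, a pyruvate dehydrogenase kinase, had the opposite order at 22.4, 32.5 and 22.4 CPM against 38.1, 72.7 and 55.7 (-1.11, adjusted p = 0.481). In libraries labelled Tet2-/- the medians were 0.03 for oxidative phosphorylation, 0.00 for ribosomal proteins and 0.01 for S phase.

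Interferon and DNA-sensing genes, the subject of the study, tended to lower values in LT-HSCs, with no call in either list. Uba7, called higher above and tied to the interferon-induced ISG15, was in neither list and went the other way. Of 55 interferon-stimulated genes 39 were lower (median -0.39), 7 of them and 1 higher gene at an unadjusted p under 0.05, against 4.00% and 3.46% of all genes. Ifi27 held 133, 160 and 106 CPM in LT-HSCs against 293, 252 and 223 in ST-HSCs (log2 fold change -0.94, SE 0.21, adjusted p = 0.107) and Ifi203, a sensor of the Ifi200 family, 188, 195 and 189 against 290, 292 and 330 (-0.67, adjusted p = 0.406). Ifitm3, a membrane protein that blocks viral entry and also in the LT-HSC identity list, chosen after its values were seen, had the opposite order, at means of 1229 against 787 CPM (0.64, adjusted p = 0.654). Of 14 cGAS-STING pathway genes 13 were lower (median -0.42), and at 6 every LT-HSC library lay below every ST-HSC library, where 7.19% of all genes did so. Tmem173, which encodes STING, held 26.3, 34.0 and 42.3 CPM against 45.9, 66.6 and 77.5 (-0.89, SE 0.43, adjusted p = 0.673). Of the 10 TET and DNMT genes 8 were lower (median -0.34), with Tet2 at 15.5, 15.2 and 11.8 CPM against 38.2, 22.3 and 12.5 (-0.78, adjusted p = 0.841), so that its ST-HSC libraries reached down to the LT-HSC level. In libraries labelled Tet2-/- the medians were -0.15 for interferon-stimulated and -0.18 for cGAS-STING genes. Immediate early genes, which respond within minutes to handling, were split, with 17 of 32 higher and a median of 0.02 that changed sign when single libraries were left out. At an unadjusted p under 0.05, 5 were lower and 1 was higher, against 4.00% and 3.46% of all genes. Every LT-HSC library lay below every ST-HSC library at 8 members and above at 6, against 7.19% and 7.64% of all genes. Fos stood at means of 760 against 715 CPM, and Cd69 was the 1 called member (0.218% of all genes were called lower).

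The same contrast in the 4 LT-HSC and 4 ST-HSC libraries labelled Tet2-/- gave the same measure with no library in common, though in one fit. There 23 genes were called higher (0.125%) and 35 lower (0.190%), and at an unadjusted p under 0.05 the shares were 4.67% higher and 4.22% lower. Of the 19 genes called higher in WT, 18 went the same way, 17 with an unadjusted p under 0.05, and 12 were called again. Of the 40 called lower, 39 went the same way, 38 with an unadjusted p under 0.05, and 29 were called again. None was called in the opposite direction. The median change of the higher genes was 2.98 in WT and 2.10 in the libraries labelled Tet2-/-, and that of the lower genes -2.81 and -2.0. The WT values are those that chose the genes. Tgfbr3 had log2 fold changes of 3.09 and 2.04, Mllt3 of 1.91 and 2.10, Pf4 of 3.58 and 2.41, Mpo of -3.96 and -3.72, Ccl3 of -7.01 and -5.17, and Cd34 of -2.38 and -1.96. Slamf1, not called in WT, was called there with 11.17.

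The 2 called genes whose sign differed between the sets were Srp14 and Lrrc8a, and neither passed the test of the difference. Srp14 had a log2 fold change of 1.29 in WT and -0.16 in libraries labelled Tet2-/- (unadjusted p = 0.000236 and adjusted p = 0.999934 for the difference by edgeR), and Lrrc8a, a subunit of the volume-regulated anion channel, -4.77 and 0.34 (unadjusted p = 8.34e-05, adjusted p = 0.767). No gene was called for a difference between the sets, that is 0 genes or 0%, by edgeR and by limma voom, while 773 had an unadjusted p under 0.05 (4.20%) and DESeq2 called 445. Among the genes called in WT, 4 of 19 and 10 of 40 had an unadjusted p under 0.05 for this difference. Rbm11 was among the 4, with fitted values of 7.21 in WT and 1.35 in libraries labelled Tet2-/-. Its difference had an unadjusted p of 6.22e-05 and an adjusted p of 0.767 by edgeR. In the libraries labelled Tet2-/- its own change had an unadjusted p of 0.114.

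**Figure D4:**
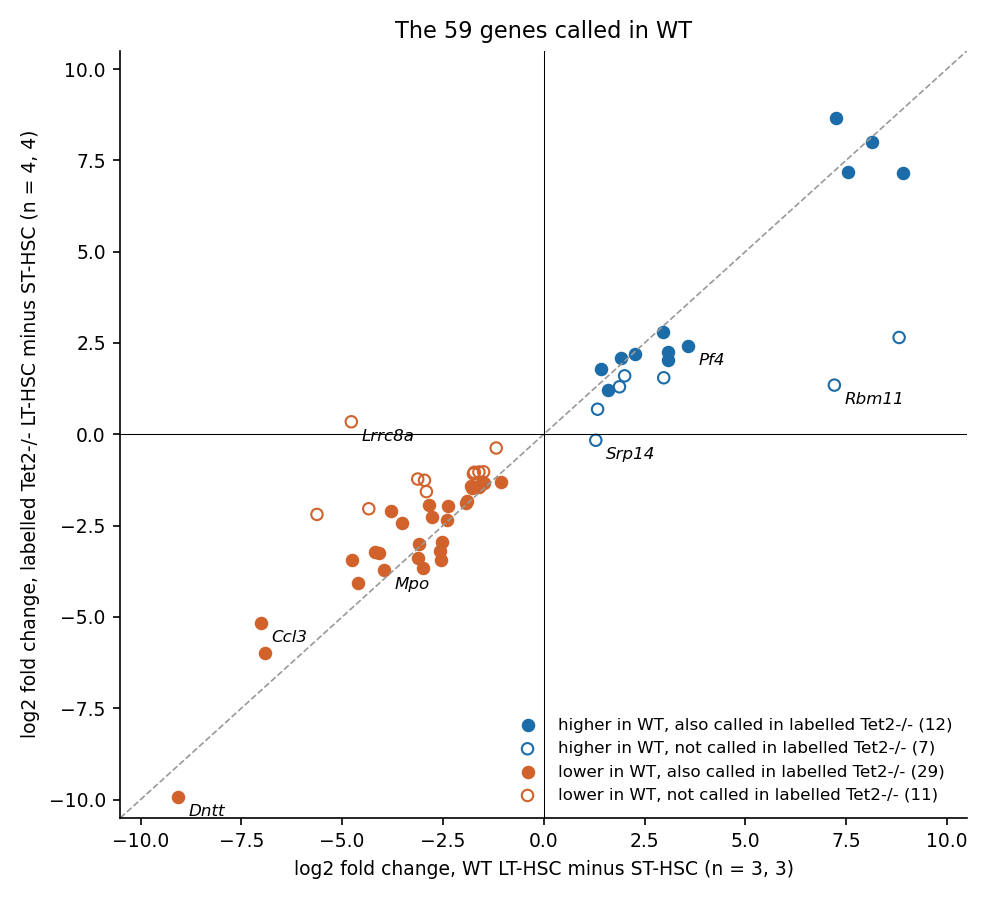
Log2 fold change of LT-HSCs over ST-HSCs in libraries labelled Tet2-/- (vertical axis, 4 against 4) against that in WT (horizontal axis, 3 against 3) for the 59 genes called in WT, blue for higher and orange for lower, filled where also called in the libraries labelled Tet2-/-. All points but Srp14 and Lrrc8a lie on the same side of 0 in both sets, and the dashed line marks equal values.

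The levels of the gate genes and of the first 5 genes in each direction were read in the 4 WT progenitor populations as well: common lymphoid progenitors (CLPs), megakaryocyte-erythroid progenitors (MEPs), granulocyte-macrophage progenitors (GMPs) and common myeloid progenitors (CMPs), with 4 libraries each. These levels are scaled over 46 libraries and so differ slightly from those above. Tgfbr3, at 49.5 ± 6.81 CPM in LT-HSCs and 5.73 ± 0.797 in ST-HSCs, was at 51.1 ± 8.61 in MEPs and 29.8 ± 5.26 in CMPs but at 1.75 ± 0.843 in GMPs and 3.26 ± 4.19 in CLPs, so LT-HSCs and MEPs did not differ beyond their spread. Pf4 had its highest mean in CMPs (558 ± 131), followed by LT-HSCs (346 ± 13.6), and was at or below 136 CPM in every library of the other 4 populations. Mllt3 was highest in LT-HSCs (167 ± 31.4), then MEPs (70.9 ± 2.71) and ST-HSCs (44.1 ± 5.53), and Pdzk1ip1 in LT-HSCs (225 ± 47.2), then ST-HSCs (73.2 ± 15) and MEPs (27.1 ± 5.68). Clec7a stood at similar means in LT-HSCs (13 ± 10.0) and GMPs (12.6 ± 3.47) and at 0 in every ST-HSC and MEP library.

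Genes lower in LT-HSCs had other patterns. Mpo, at 78.7 ± 14.9 CPM in ST-HSCs, reached 2357 ± 400 in CMPs and 20925 ± 2968 in GMPs, far above its ST-HSC level. It was lower than in ST-HSCs in every MEP library (24.1 ± 11.2) and ranged from 2.77 to 1799 CPM in CLPs. Ccl3 was highest in ST-HSCs (572 ± 98.6) and CMPs (456 ± 144), whose libraries overlapped, and was at most 146 CPM in every GMP library. Cd34 followed with 727 ± 57.3 in ST-HSCs against 520 ± 48.0 in CMPs and 527 ± 71.2 in GMPs, and was at 12.2 ± 8.49 in MEPs. H2afy stood at 552 ± 24.4 CPM in ST-HSCs, 727 ± 77.2 in CMPs and 709 ± 114 in GMPs, and Emb at 642 ± 94.6 in GMPs, 624 ± 100 in CLPs and 474 ± 69.2 in ST-HSCs. Both had their lowest means in MEPs, at 114 ± 13.4 and 7.85 ± 2.00. Of the gate genes, Slamf1 was at 50.7 ± 9.38 in LT-HSCs and next highest in CMPs (12.5 ± 2.05), and Cd48 rose from 7.45 ± 5.92 in LT-HSCs and 44.9 ± 10.6 in ST-HSCs to 317 ± 40.5 in CMPs.

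**Figure D5:**
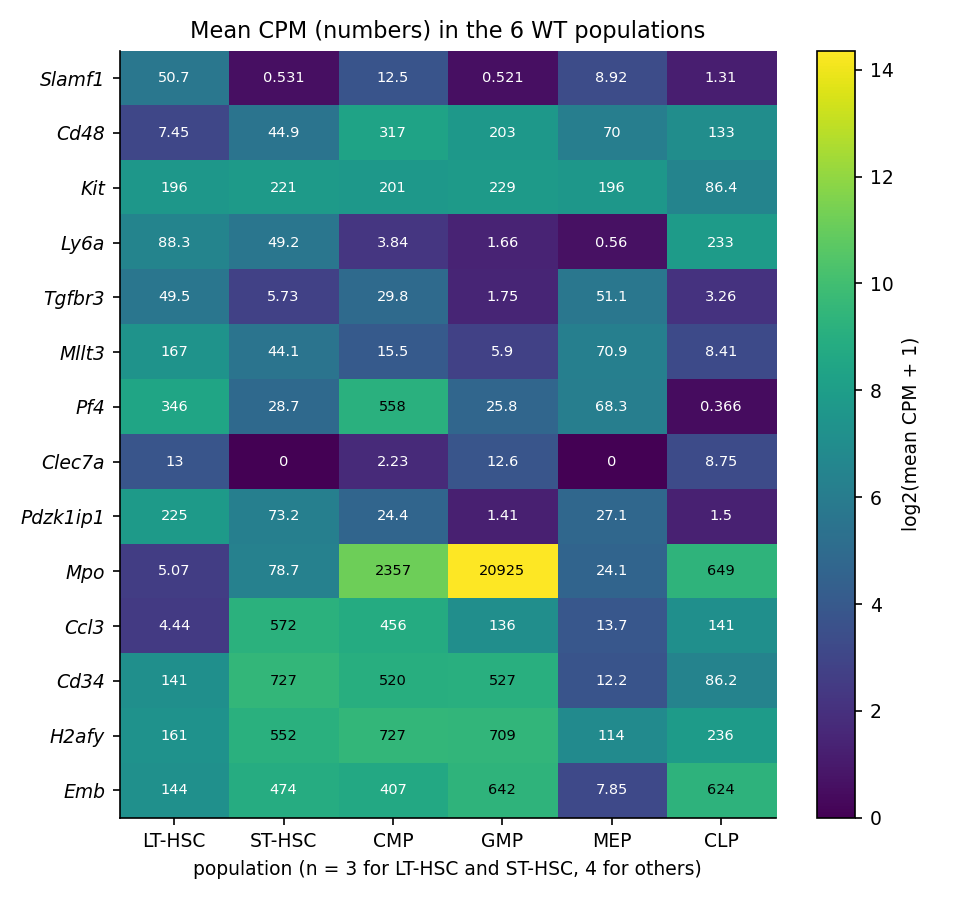
Mean CPM (numbers and colour, the colour on a log2(mean CPM + 1) scale) of the 4 gate genes and the first 5 named genes in each direction (rows) in the 6 WT populations (columns, 3 libraries for LT-HSC and ST-HSC and 4 for the others). Tgfbr3 is similar in LT-HSCs and MEPs, and Mpo reaches 20925 CPM in GMPs.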

How the data were processed

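RNA-seq was read from the table of raw gene counts the authors deposited. Per the labels and the study's methods, reads were trimmed with Trim Galore and aligned to mm10 with HISAT2. The counting program is not given in the sources used here. Deposited whole-number counts of 46 libraries were matched to the labels by column name, and 9 libraries of a second table were not used. Gene models were those of GENCODE M21. Counts of 14 HSC libraries in 4 groups were filtered with filterByExpr, scaled by TMM and tested with edgeR 4.0.16 in R 4.3.3 (glmQLFit, prior count 2, Benjamini-Hochberg adjustment), and the fit was tested on simulated data. SE was the log2 fold change divided by the square root of F. Where a population had at most 3 counts in every library, the fold is a bound against 3 counts, which covers counting error only. Some called genes are not reported here by name. The members and gene lists were chosen with earlier results of these data known. Genes were named by rule if they encoded a sorting antigen. A gene was also named if it had 1 of the 15 smallest p per direction, whether or not it was called. This part took genes with a mean of at least 10 CPM in the higher population and left out predicted models. Called members of a list, or up to 4 of smallest p, were named as well. Alternatives were DESeq2 1.42.0, limma 3.58.1 voom, RLE scaling, other filters, other library sets, a replicate block, other thresholds and leaving out each library.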

Additional observations from a re-analysis of the deposited data

Results flagged for a closer look

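In the WT progenitor populations, 6 values of the genes described stood far from the other 3 libraries of their group by Dixon's criterion, among 55 groups of 4 libraries. Of these, 4 were in CLPs: Slamf1 at 5.23 CPM with the others at 0, Mllt3 at 18.9 with the others at 4.27 to 5.80, Clec7a at 34.6 with the others at 0 to 0.378, and Pdzk1ip1 at 5.88 with the others at 0 to 0.126. The mean of Clec7a in CLPs given by the plot of population levels thus comes from 1 library. Ly6a stood at 1.77 CPM in 1 MEP library with the others at 0 to 0.277, and Emb at 542 CPM in 1 CMP library with the others at 355 to 375. No WT LT-HSC or ST-HSC group was tested in this way, as each has 3 libraries.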

How the results depend on the processing

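The 59 genes called in WT kept their direction under every alternative in which they were tested, while the number of calls differed widely between settings, and none of the 59 was called under all 10 alternatives counted. The main analysis called 19 higher and 40 lower genes in WT. DESeq2 started from the 27410 genes with any count and applied its own filter, where the main analysis tested 18385. It called 357 and 335, all 59 among them, and in libraries labelled Tet2-/- 313 and 251 where the main analysis called 23 and 35. It called 445 for the difference between the sets. limma voom with sample quality weights called 114 and 150, and 53 and 60. At a mean of at least 10 CPM the libraries labelled Tet2-/- gave 36 and 54. An unadjusted p with a 2-fold change gave 550 and 531 in WT and 730 for the difference between the sets, with 685 and 583 for libraries labelled Tet2-/-. Fewer genes were called from the 2 WT groups alone (12 and 21), with all 22 WT libraries (6 higher, 0 of them among the 19, and 29 lower, 12 of them among the 40) and with all 46 libraries (0 and 21 in WT, 6 higher for those labelled Tet2-/-, and 1 for the difference between the sets), and the cause was not tested. The replicate block gave 5 higher and 29 lower in WT (4 and 23 of them shared with the main analysis, Pf4, Clec7a and Rbm11 not) and 12 higher for those labelled Tet2-/-, and with the 2 WT groups only the replicate block gave 0 and 0 by edgeR, with 341 and 402 at an unadjusted p and a 2-fold change. Same-numbered WT libraries had correlations of 0.0455, 0.0910 and 0.0658 in their deviations, and each correlated best with its own number, a hint from the data and not from the design.

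Leaving out single libraries gave 7 to 27 higher and 12 to 41 lower in WT, 13 to 33 and 25 to 42 for those labelled Tet2-/-, and 0 to 1 for the difference between the sets. Of the 169 genes followed across settings, out of all those tested, these changed sign or fell to 0 when a single library was left out, and none of them was called: Hk1 ranged from -0.092 to 0.77, mt-Nd4 from -0.20 to 0.030, S100a9 from -1.06 to 0.54, S100a8 from -0.64 to 1.85, Ngp from -0.14 to 5.36, Adgre1 from -1.72 to 4.98, Procr from -0.059 to 0.39, Igkc from -0.074 to 2.43, Cdca3 from -0.051 to 0.73, Camp from -0.85 to 1.49, Pdgfra from -5.03 to 0 and Gzmb from -5.71 to 0.0072 on the log2 scale. The median of early lymphoid priming genes ranged from -1.46 with DESeq2 to -0.67 with the replicate block, and was -0.96 without LT-HSC library 2 and -1.0 without ST-HSC library 3. The median of megakaryocyte and platelet genes was 1.67 without ST-HSC library 3, the median of imprinted growth genes 0.05 without LT-HSC library 3 and 0.88 without ST-HSC library 2, the median of G1 cyclins and CDK inhibitors 0.12 and -0.14 without LT-HSC library 2 or 3, and the median of immediate early genes -0.18 without ST-HSC library 2 and -0.15 without LT-HSC library 5. Depth was high in every library, and the median SE was 0.71 on the log2 scale over all genes. Their part in the number of calls was not tested.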

Other observations

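Of the genes called lower, Ccl3, Ccl4 and Wfdc17 are neighbours on chromosome 11, with 13229 and 39308 bases between them. Of the surrounding genes, chosen after their values were seen, none of these was called: the chemokine gene Ccl9 had a log2 fold change of -4.40 (adjusted p = 0.0883 by edgeR), Ccl6 was at 0 in LT-HSCs and at least 60.0-fold lower (adjusted p = 0.465), Ccl5 had 0.05, Wfdc18 had -2.64, and Taf15 and Heatr6 had -0.27 and -0.14.

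A cluster of lectin receptor genes on chromosome 6 held called genes of both directions. Cd69 and Clec12a were lower in LT-HSCs and Clec7a was higher, with 67255 bases between Cd69 and Clec12a and 96288 between Clec12a and Clec7a. Between and beside them Clec1b, Clec9a and Clec1a had log2 fold changes of 3.95, 3.42 and 2.96 and were not called. This cluster, too, was picked once the values were known.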
